A study of Homo sapiens with 4 samples.

Results

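Transcripts of 10 inflammatory cytokine and chemokine genes were followed: CXCL1, CXCL2, CXCL3, CXCL8, CXCL10, CCL2, CCL5, IL6, IL1A and IL1B. They were chosen by name, with earlier results of these data known, and looked up by Ensembl identifier in 4 deposited expression tables. Shares of these genes and of the gene lists set beside shares of all genes are therefore descriptions and not tests. Of the 10 genes, 9 were listed in at least 1 table and 8 in all 4, while CCL5 was listed in none. An absent identifier is no count of 0, since genes with 0 reads are listed and IKBKG, a core NF-κB signalling gene, is absent from all 4 tables too. Only 5 of them, CXCL1, CXCL2, CXCL3, CXCL8 and CCL2, reached 1 CPM (the reads of a gene scaled to a common library total) in any library. Across the whole series, 14154 of 27629 listed identifiers reached that level.

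The cells were UM-UC-3, an established line from a human bladder cancer, and every library was made from total RNA taken 48 h after transfection with 75 nM siRNA. The control library came from cells given a negative control siRNA, and each of the other 3 libraries from cells given a mixture of a pair of siRNAs against hnRNPK, lncRNA-LBCS or PTBP1. hnRNPK and PTBP1 are RNA-binding proteins that take part in splicing and in other steps of RNA metabolism, and lncRNA-LBCS is a long noncoding RNA. There was 1 library per condition, so no value has a replicate error, and every comparison below is between single libraries of 1 cell line.

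Chemokines are small secreted proteins that draw white blood cells along a concentration gradient. CXCL1, CXCL2, CXCL3 and CXCL8 bind the receptor CXCR2 and attract neutrophils, CXCL10 binds CXCR3 on T cells, and CCL2 and CCL5 attract monocytes and other leukocytes through CC receptors. IL-6, IL-1α and IL-1β are cytokines that spread an inflammatory response between cells. In many epithelial cells and tumour lines these genes are induced through NF-κB, a family of transcription factors held inactive by IκB proteins, and their mRNAs are often short-lived because of AU-rich elements.

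Most of these genes lie in gene clusters. On GRCh38 (GENCODE release 29), CXCL8 occupies chr4:73740506-73743716 and CXCL1 chr4:73869393-73871242, both on the plus strand. CXCL3, at chr4:74036589-74038807, and CXCL2, at chr4:74097035-74099293, follow on the minus strand. CXCL10 lies further along the same chromosome at chr4:76021117-76023497 on the minus strand, and CCL2 at chr17:34255218-34257203 on the plus strand. IL1A (chr2:112773915-112784590) and IL1B (chr2:112829751-112836903) are neighbours on the minus strand, and IL6 occupies chr7:22725884-22732002 on the plus strand.

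RefSeq promoter sequences (GRCh38.p14) were at hand for 8 of the 10 genes, that is all but CCL2 and CCL5. In the 250 bases before the RefSeq start, GGAATTTCC was found on either strand in 5 of these 8 genes and in 0.413% of 35116 promoters. This element was picked after the sequences had been seen. The windows of 60 bases around it are shown because 4 of these 5 genes are among the chemokines that differed between libraries. Each is written 5′ to 3′ on the strand of its gene, with the element in capitals. In CXCL10 it stands on the opposite strand and so reads GGAAATTCC.
CXCL1 (chr4:73869295-73869354, plus strand): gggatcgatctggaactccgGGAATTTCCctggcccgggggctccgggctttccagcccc
CXCL2 (chr4:74099233-74099292, minus strand): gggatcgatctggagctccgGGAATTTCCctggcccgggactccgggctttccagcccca
CXCL3 (chr4:74038728-74038787, minus strand): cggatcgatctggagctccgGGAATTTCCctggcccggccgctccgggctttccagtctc
CXCL8 (chr4:73740458-73740517, plus strand): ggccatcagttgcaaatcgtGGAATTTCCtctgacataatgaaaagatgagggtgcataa
CXCL10 (chr4:76023634-76023693, minus strand): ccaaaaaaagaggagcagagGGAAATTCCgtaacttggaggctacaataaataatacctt

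The element began 78 bases before the start in CXCL1, 77 in CXCL2 and 78 in CXCL3, whose windows look alike, and 91 in CXCL8 and 176 in CXCL10. The broader NF-κB consensus, searched on both strands, was found in the same 250 bases of CXCL1, CXCL2, CXCL3, CXCL10 and IL6 and in 5.21% of all promoters. It overlaps the shorter element in the first 4 of these. The core of the interferon-stimulated response element, also searched on both strands, was found only in CXCL10 among the 8 genes and in 3.02% of all promoters. A match describes the letters of the window and does not show binding.

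The libraries held 61371954 (control siRNA), 54301152 (si-hnRNPK), 70232674 (si-lncRNA-LBCS) and 56064691 (si-PTBP1) reads on listed genes. HNRNPK fell from 783.1 CPM in the control to 187.8 CPM in the si-hnRNPK library, and PTBP1 from 280.0 to 89.7 CPM in the si-PTBP1 library. Both siRNAs labelled as against lncRNA-LBCS matched AL022068.1 (ENSG00000228412), which held 110 reads in the control and 103 in that library, a CPM ratio of 0.818 (0.619 to 1.08). It was the lowest of the 4 levels, at 1.47 CPM beside 1.79 in the control, 3.43 in si-hnRNPK and 3.82 in si-PTBP1. The sample labels give a qPCR level of the target of 0.13 relative to control siRNA, and 0.08 in si-hnRNPK and 0.1 in si-PTBP1. The CPM ratios of HNRNPK and PTBP1 in their own libraries, 0.240 and 0.320, were also higher than these qPCR levels. The difference of AL022068.1 from the control in reads was not outside counting error, so its library is called the library labelled si-lncRNA-LBCS. Intervals here and below are at 95% and exact, and cover counting error only.

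Among defining markers of white blood cells, CD14 had at most 4 reads. PTPRC and LYZ were not listed in any table, which gives no level for them. The 16 white blood cell markers together summed to 4.76 CPM in the control, 4.42 in si-hnRNPK, 2.48 in si-PTBP1 and 1.88 for the library labelled si-lncRNA-LBCS. Between 6 and 7 of the 16 were listed in each table, and the sums cover only those. ITGAX was highest in the control with 2.57 CPM and lay between 0.910 and 0.997 CPM elsewhere. ITGAM, which had the highest level per length of the list in any library, had 0.978 CPM in the control, 2.78 in si-hnRNPK, 0.589 in si-PTBP1 and 0.285 for the library labelled si-lncRNA-LBCS, and was the highest in si-hnRNPK like the chemokines below. The 10 fibroblast and endothelial markers summed to between 3.35 and 8.44 CPM, most of it from PDGFRA. The 14 epithelial and urothelial markers summed to between 151.7 and 214.7 CPM, nearly all from KRT18 and KRT8. Among low markers, TP63 had 0.342 CPM in the control but 2.50 in si-hnRNPK and 2.37 in si-PTBP1, and COL1A1 had 0.407 CPM in the control and 2.25 in si-PTBP1, each a log2 difference above 1. CDH1 was not listed, which gives no level for it, and EPCAM had 1 read in 1 library, so the epithelial label rested on keratins. The part of these markers in the results below was not tested, and in bulk RNA fewer cells of a kind and less RNA per cell cannot be told apart.

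The first question was which of the 10 genes these cells transcribed. CCL2 had the highest level per length in the control library, 34.7 CPM per kb of exon, followed by CXCL1 with 29.6, CXCL8 with 16.4, CXCL2 with 9.87 and CXCL3 with 7.34 CPM per kb. No neighbours in this order had overlapping counting intervals. In the si-hnRNPK library the order was CCL2 (161.4 CPM per kb), CXCL8 (64.9), CXCL1 (52.0), CXCL2 (24.5) and CXCL3 (19.5), so CXCL8 and CXCL1 changed places. In the library labelled si-lncRNA-LBCS CXCL1 stood first with 17.7 CPM per kb, above CCL2 with 8.09 and CXCL8 with 7.29, which overlapped each other within counting error. CXCL1 also stood first in the si-PTBP1 library with 24.7 CPM per kb, ahead of CCL2 with 14.2 and CXCL2 with 13.3, which again overlapped. All 5 expressed genes were chemokines, and none of the cytokine genes reached 1 CPM.

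**Figure D1:**
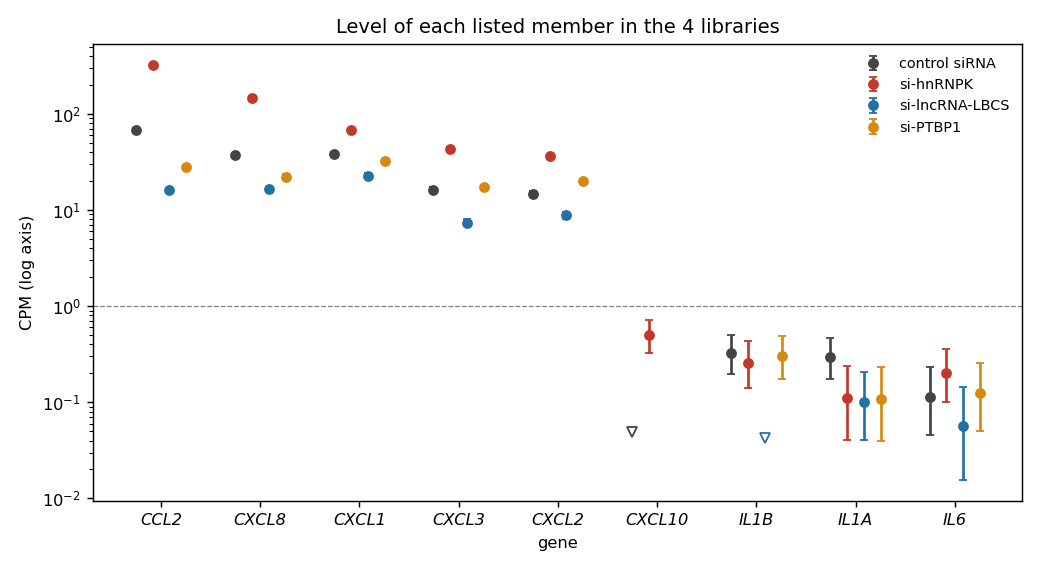
Level in CPM (log axis) of the 9 listed genes in the 4 libraries, with 95% exact Poisson intervals of the reads. Open triangles mark 0 reads and stand at the level of 3 reads, and the dashed line is 1 CPM. Of the listed genes, 5 chemokines lie above 1 CPM in every library, with si-hnRNPK highest and the library labelled si-lncRNA-LBCS lowest for each, and CXCL10, IL1B, IL1A and IL6 lie below 1 CPM throughout.

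Among the ligands of CXCR2, CXCL8 (interleukin-8, a strong neutrophil attractant) had 37.2 CPM in the control, 147.6 in si-hnRNPK, 22.3 in si-PTBP1 and 16.6 for the library labelled si-lncRNA-LBCS. These values rest on 2283, 8013, 1253 and 1165 reads. It was the CXCR2 ligand with the widest range, with a highest level 8.90-fold (8.36 to 9.47) above its lowest.

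CXCL1 (GROα) was the CXCR2 ligand with the highest control level per length among the 10 genes. It had 38.3 CPM in the control, 67.4 in si-hnRNPK, 32.1 in si-PTBP1 and 22.9 for the library labelled si-lncRNA-LBCS. Its range of 2.95-fold (2.78 to 3.13) was the narrowest of the 5 expressed genes. The CPM of CXCL8 was 0.970 times that of CXCL1 in the control and 2.19 times in si-hnRNPK, but 0.697 times in si-PTBP1 and 0.725 times in the library labelled si-lncRNA-LBCS. These ratios are not corrected for length and are read only between libraries, where si-hnRNPK stood apart with the highest value.

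CXCL2 and CXCL3 (GROβ and GROγ), close relatives of CXCL1, had the same order of libraries. CXCL2 had 14.8 CPM in the control, 36.7 in si-hnRNPK, 19.9 in si-PTBP1 and 8.80 for the library labelled si-lncRNA-LBCS. CXCL3 had 16.3, 43.2, 17.3 and 7.39 CPM in the same order. Unlike CXCL1 and CXCL8, neither was lower in si-PTBP1 than in the control. No stretch of 100 bases, the length of a read, was shared exactly between the longest coding transcripts of CXCL1, CXCL2, CXCL3, CXCL8 and CXCL6. How reads that match several genes were counted is not given in the sources used here.

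CCL2 (MCP-1), the monocyte attractant, had the largest spread of the 5 genes above 1 CPM. It held 68.9 CPM in the control, 320.4 in si-hnRNPK, 28.3 in si-PTBP1 and 16.1 for the library labelled si-lncRNA-LBCS, from 4226, 17402, 1586 and 1128 reads. The highest level was 20-fold (18.8 to 21.2) above the lowest. CCL2 made up 39.2% of the summed CPM of the 5 genes in the control, 52.1% in si-hnRNPK, 23.6% in si-PTBP1 and 22.4% for the library labelled si-lncRNA-LBCS. The sums themselves were 175.5, 615.3, 119.9 and 71.7 CPM in that order.

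The 4 listed genes below 1 CPM gave few reads. CXCL10, an interferon-induced chemokine, had 0 reads in the control and 27 reads (0.497 CPM) in si-hnRNPK. That is 10.2-fold higher when the control is set at 3 reads, and the counting interval starts at 7.72-fold. CXCL10 was not listed in the other tables. IL6 had 7, 11, 7 and 4 reads in the control, si-hnRNPK, si-PTBP1 and the library labelled si-lncRNA-LBCS, and no knockdown library differed from the control outside counting error. Its si-hnRNPK level was 3.56-fold (1.05 to 15.3) that of its lowest library.

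IL1B had 20, 14, 17 and 0 reads in the same order. The library labelled si-lncRNA-LBCS was thus 7.63-fold lower than the control when set at its floor of 3 reads. The counting interval of this difference starts at 5.65-fold. IL1A had 18 reads in the control but 6, 6 and 7 in the knockdown libraries, with CPM ratios of 0.377 (0.122 to 0.991), 0.365 (0.119 to 0.960) and 0.340 (0.120 to 0.853). IL1A was therefore lower than in the control in each case, by intervals that end just below 1 in si-hnRNPK and si-PTBP1. All 3 comparisons use the same 18 control reads.

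Changes against the control library were then taken as differences in log2(CPM + 1), where the added 1 CPM makes changes of weakly expressed genes look smaller than their ratios. Genes with 1 CPM or more in either library were compared, and "rose" and "fell" below mean a difference of 1 or more. With no replicates, no p-value could be given for the conditions. The 3 comparisons share the control library, so an unusual control value would enter all of them.

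In the si-hnRNPK library CCL2, CXCL8, CXCL3 and CXCL2 rose, and CXCL1 had 1.76-fold (1.67 to 1.85) the control level without passing the threshold. Of the 5 genes at 1 CPM, 4 rose and 0 fell, and of the 13672 genes compared 3.55% rose and 3.93% fell, together 7.48%. CCL2 was 4.65-fold (4.50 to 4.81) higher, a difference of 2.20 on the log2 scale, and CXCL8 was 3.97-fold (3.79 to 4.16) higher, a difference of 1.96. CXCL3 with 2.65-fold (2.46 to 2.86) and CXCL2 with 2.48-fold (2.29 to 2.69) overlapped within counting error, with log2 differences of 1.35 and 1.26.

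The median log2 difference of the 5 chemokines was 1.35 in si-hnRNPK, beside -0.11 over all genes compared. Among the 13672 genes, 47 had a larger log2 difference than CCL2, 74 than CXCL8 and 795 than CXCL1. With median-of-ratios scaling, which moves the centre of all genes to 0, the log2 differences became 2.31 for CCL2, 2.07 for CXCL8, 1.46 for CXCL3, 1.36 for CXCL2 and 0.91 for CXCL1. The calls stayed as they were under that scaling. Against the geometric mean of the other 3 libraries in place of the control, CXCL1 also passed the threshold with 1.12, and CCL2 reached 3.30.

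**Figure D2:**
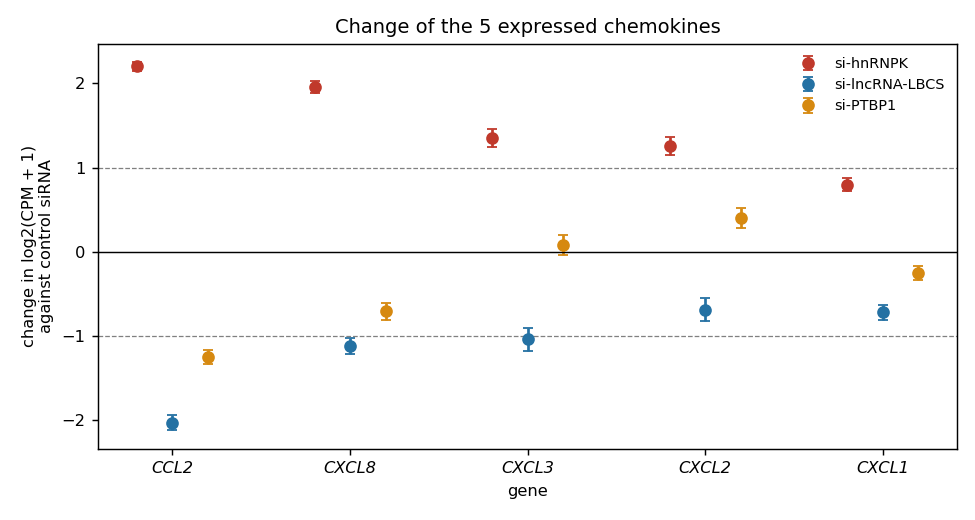
Change in log2(CPM + 1) against the control siRNA library for the 5 chemokines above 1 CPM in each knockdown library, with 95% exact counting intervals and dashed lines at 1 and -1. All 5 lie above 0 in si-hnRNPK, from 0.80 (CXCL1) to 2.20 (CCL2), and all 5 lie below 0 in the library labelled si-lncRNA-LBCS, from -2.03 (CCL2) to -0.69 (CXCL2). In si-PTBP1 they spread from -1.25 (CCL2) to 0.40 (CXCL2).

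In the library labelled si-lncRNA-LBCS CCL2, CXCL8 and CXCL3 fell. These were 3 of the 5 genes at 1 CPM, and 0 of the 5 rose, while 1.01% of the 13492 genes compared fell and 0.378% rose, together 1.39%. CCL2 was 4.29-fold lower than in the control, with a CPM ratio of 0.233 (0.218 to 0.249), and only 5 genes had a lower log2 difference. CXCL8, at a ratio of 0.446 (0.415 to 0.479), and CXCL3, at 0.454 (0.408 to 0.505), overlapped within counting error. Their log2 differences were -1.12 and -1.04, close to the threshold.

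CXCL1 and CXCL2 did not pass the threshold there, with log2 differences of -0.72 and -0.69. Their ratios of 0.597 (0.560 to 0.637) and 0.594 (0.536 to 0.659) to the control nonetheless lay outside counting error, and CXCL2 passed the threshold with -1.24 when the geometric mean of the other 3 libraries was the reference. The median over the 5 genes was -1.04 on the log2 scale, beside -0.01 over all genes compared. The reads of the gene matched by the siRNAs of this library are given above.

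In the si-PTBP1 library only CCL2 fell, 1 of the 5 genes at 1 CPM, and 0 of the 5 rose, while 0.613% of the 13855 genes compared fell and 2.92% rose, together 3.53%. CCL2 was 2.43-fold lower, with a CPM ratio of 0.411 (0.388 to 0.435) and a log2 difference of -1.25. CXCL8 had a ratio of 0.601 (0.560 to 0.644) and CXCL1 one of 0.836 (0.786 to 0.890), log2 differences of -0.71 and -0.25. CXCL2 lay on the other side, with a ratio of 1.34 (1.23 to 1.47) and a log2 difference of 0.40.

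CXCL3 was level with the control in si-PTBP1 within counting error, at a ratio of 1.06 (0.971 to 1.16). The sign of its log2 difference of 0.08 was not stable, since median-of-ratios scaling gave -0.04. The centre of all genes lay at 0.12 in this comparison, and relative to it CCL2 stood at -1.38, CXCL8 at -0.83, CXCL1 at -0.37 and CXCL2 at 0.28. The 5 chemokines thus did not share 1 direction in this library, and their median log2 difference was -0.25.

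**Figure D3:**
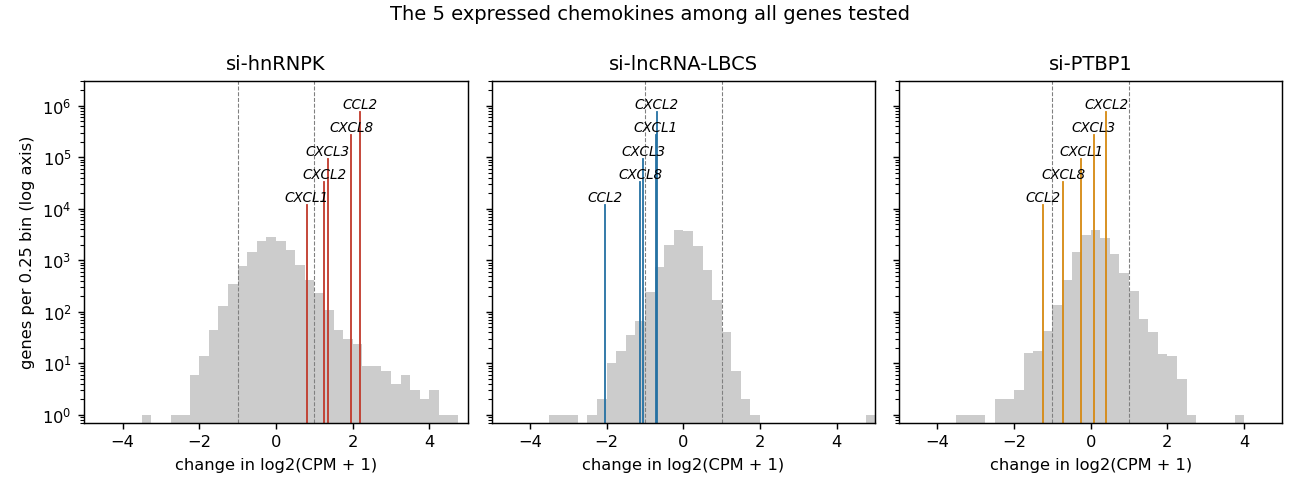
Number of genes (log axis) in bins of 0.25 of the change in log2(CPM + 1) for all genes compared in each knockdown library, with the 5 chemokines as vertical lines of staggered height and dashed lines at 1 and -1. The chemokines stand in the right flank of the distribution in si-hnRNPK, in the left flank for the library labelled si-lncRNA-LBCS, while in si-PTBP1 they run from the left flank to the right of the centre.

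The siRNAs were checked for short matches to the chemokine mRNAs, since bases 2 to 8 of a guide strand can pair with 3′ UTRs. The sense strands of 2 mixtures are shown, with the bases that would be found in a matching UTR in capitals.
si-hnRNPK siRNA 1: ggguuguagagUGCAUAAatt
si-hnRNPK siRNA 2: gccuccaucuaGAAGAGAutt
si-PTBP1 siRNA 1: gccucaacgucAAGUACAatt
si-PTBP1 siRNA 2: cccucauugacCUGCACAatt

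Neither si-hnRNPK siRNA had such a match in the longest annotated 3′ UTR of any of the 10 genes, beside 9.58% and 17.6% of 19146 genes. CXCL8 held 1 match to si-PTBP1 siRNA 1 (11.3% of genes) and CXCL1 held 1 match to si-PTBP1 siRNA 2 (13.6%). The control siRNA had none in the 10 genes, and of the siRNAs in the library labelled si-lncRNA-LBCS 1 matched CCL5 only (16.4%). CCL2, which had the largest difference in all 3 comparisons, held no match to any of these siRNAs.

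Of 24 other chemokine genes, 4 could be compared in si-hnRNPK. CCL20, CCL7 and CXCL6 rose while 0 fell, with a median log2 difference of 1.63 beside -0.11 over all genes. Of all genes compared there, 3.55% rose and 3.93% fell. The fourth gene, CXCL16, is named after its values were seen. It had 1.65 CPM in the control and 0.479 in si-hnRNPK, a ratio of 0.291 (0.181 to 0.451) and a log2 difference of -0.84. CCL20, the ligand of CCR6, rose from 0.358 to 7.29 CPM. CXCL6, another CXCR2 ligand, rose from 2.43 to 9.19 CPM, and CCL7, a monocyte attractant whose gene is next to CCL2, from 0.587 to 4.11 CPM.

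In the other libraries no gene of this list passed the threshold, but the added 1 CPM weighs on genes this low. CCL20 stood at 1.45 CPM in si-PTBP1 and 1.25 CPM for the library labelled si-lncRNA-LBCS, beside 0.358 in the control. Its ratios of 4.03 (2.49 to 6.78) and 3.50 (2.17 to 5.86) lay outside counting error. CXCL6 had 2.25 and 3.09 CPM in these libraries, log2 differences of -0.08 and 0.25, so the fall of CXCL8 and CXCL3 in the library labelled si-lncRNA-LBCS was not seen for this neighbour. CCL7 stayed under 1 CPM in these libraries and the control, and so was not compared. It had 36 control reads but 7 for the library labelled si-lncRNA-LBCS, a ratio of 0.170 (0.064 to 0.387), lower like CCL2. In si-PTBP1 its ratio of 0.578 (0.313 to 1.03) was within counting error. CXCL16 had ratios of 0.320 (0.213 to 0.471) for the library labelled si-lncRNA-LBCS and 1.11 (0.831 to 1.47) in si-PTBP1. CCL7 and CXCL16 were picked here after their values were seen. CXCL5 and PPBP, which lie between CXCL1 and CXCL3, were not listed.

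**Figure D4:**
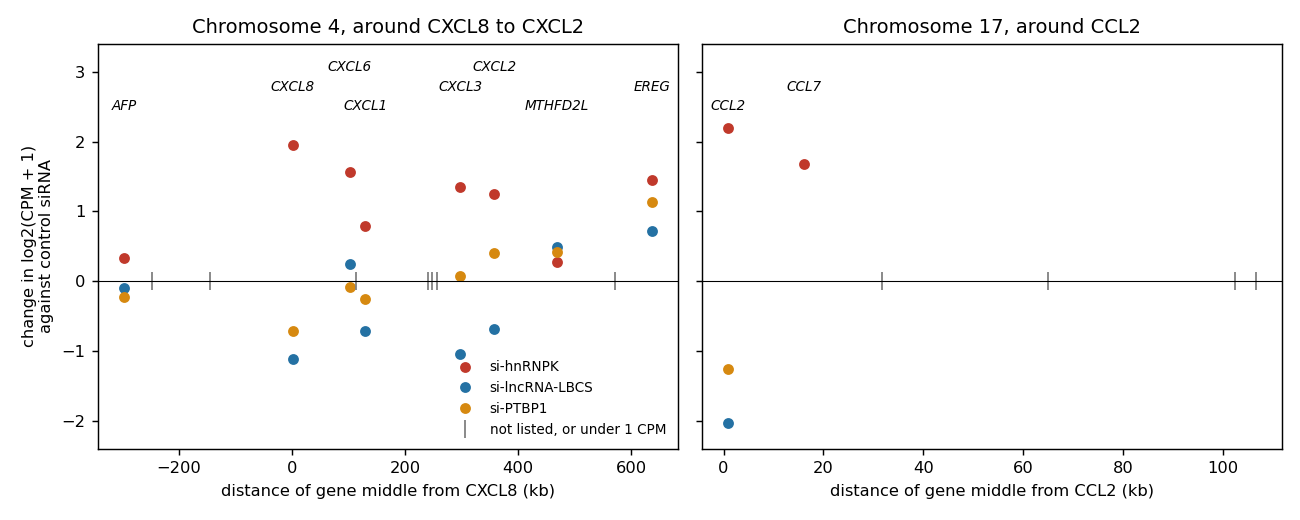
Change in log2(CPM + 1) against the control siRNA library for genes around CXCL8 to CXCL2 on chromosome 4 and around CCL2 on chromosome 17, by distance in kb from the start of CXCL8 or CCL2. Ticks on the 0 line mark genes that were not listed or were under 1 CPM. In si-hnRNPK the differences are 1.96 for CXCL8, 1.57 for CXCL6, 0.80 for CXCL1, 1.35 for CXCL3 and 1.26 for CXCL2, with 0.33 for AFP on one flank and 0.28 for MTHFD2L on the other.

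Genes flanking the chromosome 4 cluster within 300 kb were read in the same way. AFP had log2 differences of 0.33 in si-hnRNPK, -0.23 in si-PTBP1 and -0.09 for the library labelled si-lncRNA-LBCS. MTHFD2L, next to CXCL2, had 0.28, 0.41 and 0.49. EREG, the gene of the growth factor epiregulin, had 1.45, 1.13 and 0.71, and so was higher than the control in every knockdown library, also in those where CXCL8 was lower.

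Among 29 other cytokine genes, 14 could be compared in si-hnRNPK, of which 4 rose and 0 fell, with a median of 0.30. Of all genes compared there, 3.55% rose and 3.93% fell. IL7, a lymphocyte growth factor, rose from 1.38 to 6.48 CPM, CSF1, the macrophage growth factor, from 56.1 to 119.5 CPM, and IL18, an IL-1 family cytokine, from 19.7 to 43.0 CPM. The fourth was TNF, which went from 11 to 105 reads and is named after its values were seen.

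In the library labelled si-lncRNA-LBCS 10 of these cytokine genes could be compared, of which 3 fell and 0 rose, with a median of -0.29. The shares over all genes compared were 1.01% and 0.378%. CSF1 fell to 25.6 CPM and LIF, a cytokine of the IL-6 family, from 53.0 to 24.8 CPM. The third was IL32, from 4.61 to 0.698 CPM, also named after its values were seen.

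In si-PTBP1, 2 of 10 of these cytokine genes rose and 1 fell, with a median of 0.13. The shares over all genes compared were 2.92% and 0.613%. IL11, another IL-6 family cytokine, rose from 62.7 to 136.9 CPM and IL7 to 4.26 CPM, while IL32 fell to 1.46 CPM. IL11 and LIF were thus well expressed in cells where IL6 itself was near its floor.

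Of 15 receptor genes for the 10 ligands, 4 could be compared in each library. CXCR2 had at most 1 read where it was listed, and CXCR1 and CCR2 were not listed, which gives no level for them. IL1R1, the IL-1 receptor, rose from 3.44 to 10.3 CPM in si-hnRNPK, and IL6R rose from 3.60 to 9.52 CPM in si-PTBP1. No receptor gene passed the threshold in the library labelled si-lncRNA-LBCS, where IL6ST, the shared signalling chain of IL-6 family receptors, had 135.7 CPM beside 206.9 in the control.

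Of 11 genes for IL-1 processing and restraint, 6 could be compared in each library. The inflammasome sensors NLRP3 and NLRP1 fell for the library labelled si-lncRNA-LBCS, where they had 4.68 and 6.29 CPM beside 16.3 and 14.0 in the control. NLRP3 alone fell in si-PTBP1, to 4.08 CPM, and none of the 6 passed the threshold in si-hnRNPK. There SIGIRR and IL18BP, picked after their values were seen, had ratios of 0.484 (0.410 to 0.570) and 0.481 (0.414 to 0.558). Their log2 differences were -0.88 and -0.92. The other genes compared there lay above 0, with NLRP3 highest at 0.72. The most abundant of the list per length, GSDMD, which forms the pores that release IL-1β, stayed between 57.7 and 79.9 CPM.

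Genes of the NF-κB pathway were compared as 2 lists, the signalling components and the targets with feedback regulators. The activity of NF-κB itself was not measured. Of 24 signalling components compared in si-hnRNPK, 2 rose and 0 fell, where 3.55% of all genes compared rose and 3.93% fell. The 2 were TLR3, a sensor of double-stranded RNA, from 0.864 to 6.48 CPM and IRAK2, a kinase of the IL-1 and Toll-like receptor pathway, from 34.2 to 85.4 CPM. In each of the other libraries 0 of 23 passed the threshold. The medians were -0.04, 0.05 and -0.17 on the log2 scale in si-hnRNPK, si-PTBP1 and the library labelled si-lncRNA-LBCS.

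Of the 20 target and feedback genes compared in si-hnRNPK, 9 rose and 0 fell, with a median of 0.85 beside -0.11 over all genes. The shares over all genes compared were 3.55% and 3.93%. SOD2, the mitochondrial superoxide dismutase, went from 121.6 to 1322 CPM, 10.9-fold (10.6 to 11.1) higher. TRAF1, an adaptor of TNF receptors, rose from 34.2 to 105.6 CPM. IER3, an immediate early gene, rose from 70.4 to 242.2 CPM and IRF1, an interferon regulatory factor, from 29.2 to 83.6 CPM.

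NFKBIA, which encodes IκBα, the inhibitor that NF-κB itself induces, rose from 243.3 to 494.7 CPM in si-hnRNPK, a log2 difference of 1.02 that only just passed the threshold. BIRC3 and NFKB2, which are also textbook targets, had log2 differences of -0.07 and -0.06 there. TNFAIP2, BIRC2, TNIP1 and NFKBIE, picked after their values were seen, had -0.99, -0.87, -0.77 and -0.42, short of the threshold. The list was therefore not uniform in si-hnRNPK.

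In the library labelled si-lncRNA-LBCS 5 of 19 of these genes fell and 0 rose, with a median of -0.48 beside -0.01 over all genes. Of all genes compared, 1.01% fell and 0.378% rose. TRAF1 fell to 3.45 CPM, 9.91-fold lower than in the control. BIRC3 fell from 281.6 to 66.8 CPM, NFKB2 from 83.3 to 25.1 CPM and NFKBIA to 88.9 CPM. SOD2 and IER3 had log2 differences of 0.34 and 0.17 in that library and did not pass the threshold.

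In si-PTBP1, 2 of 19 fell and 0 rose, with a median of -0.03 beside 0.12 over all genes. Of all genes compared, 0.613% fell and 2.92% rose. TRAF1 fell to 5.37 CPM and BIRC3 to 133.7 CPM, while NFKBIA stood at 146.2 CPM with a log2 difference of -0.73. Like CCL2, TRAF1, BIRC3, NFKB2 and NFKBIA had si-PTBP1 values between those of the control and of the library labelled si-lncRNA-LBCS. These genes were picked after their values were seen, and the list did not share this order. In si-PTBP1, IRF1 had 36.5 CPM beside 29.2 in the control, and BCL3 had 15.7 beside 8.18. TNFAIP2 had 3.17 CPM there, below 4.02 in the library labelled si-lncRNA-LBCS.

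**Figure D5:**
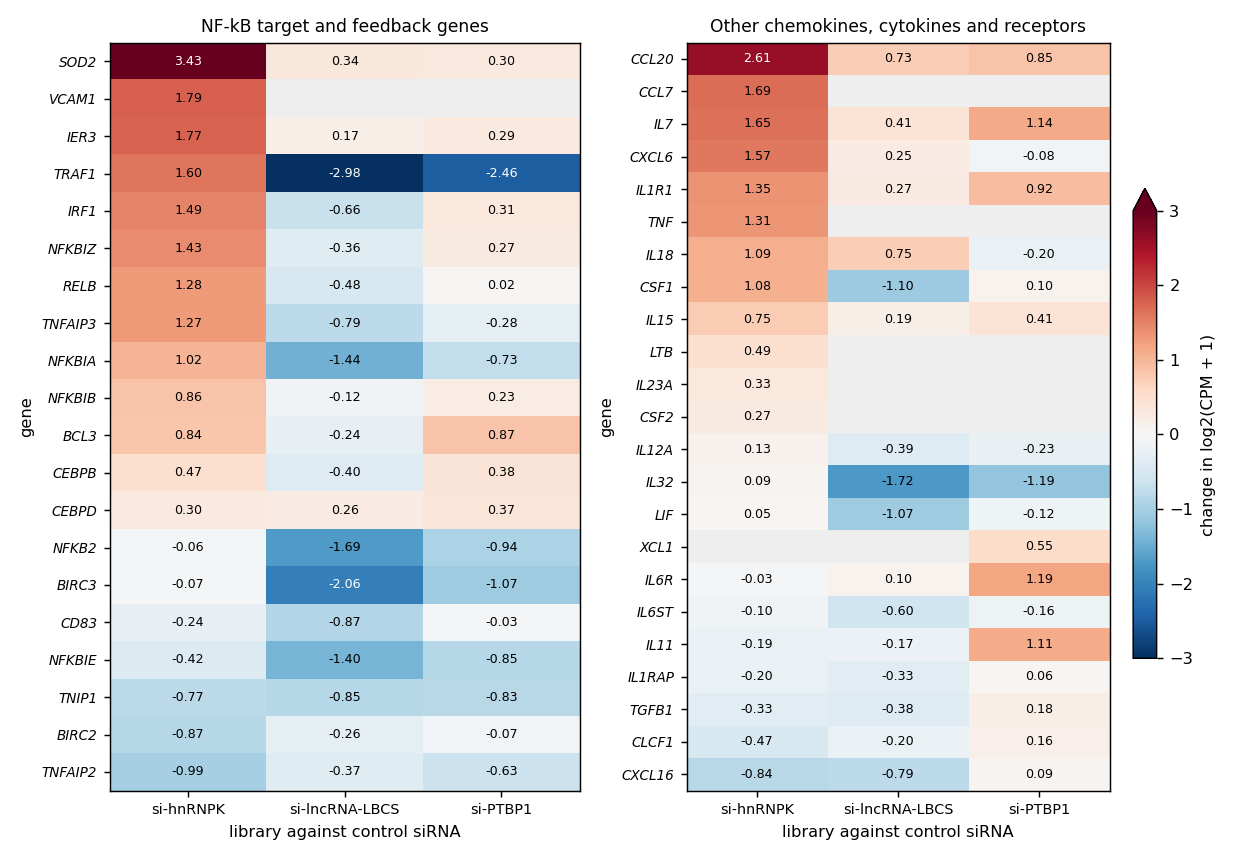
Change in log2(CPM + 1) against the control siRNA library for NF-κB target and feedback genes (left) and for other chemokines, cytokines and receptors (right), with the value in each cell. Grey cells were under 1 CPM or not listed, and the colour scale ends at 3 and -3. SOD2 (3.43) and CCL20 (2.61) head the si-hnRNPK column, and TRAF1 is the lowest value of the other columns with -2.98 and -2.46.

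Of 14 factors that bind or act on AU-rich mRNAs, 1 fell and 0 rose in si-hnRNPK, where 3.93% of all genes compared fell and 3.55% rose. It was HNRNPD (AUF1), which promotes the decay of many such mRNAs, from 59.1 to 22.6 CPM. In the other libraries 0 of 14 passed the threshold, beside 3.53% of all genes in si-PTBP1 and 1.39% for the library labelled si-lncRNA-LBCS. DUSP1, the most abundant of the list per length, went from 90.5 CPM in the control to 137.0 in si-hnRNPK, 91.5 in si-PTBP1 and 67.1 for the library labelled si-lncRNA-LBCS.

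CCL2 had the largest log2 difference of the 10 genes, and the 5 genes most like it in their 3 log2 differences were named by Euclidean distance among 10719 genes. They were IFIT3 (distance 0.788), G0S2 (0.791), IFIT2 (0.809), HMOX1 (0.866) and OASL (1.07). IFIT3 had 23.4, 157.8, 7.42 and 7.65 CPM in the control, si-hnRNPK, si-PTBP1 and the library labelled si-lncRNA-LBCS. HMOX1 had 47.7, 167.6, 33.1 and 12.5 CPM in the same order. Of the other chemokines, CXCL8 came next to this group as the sixth nearest gene (1.09), and CXCL3, CXCL1 and CXCL2 stood at ranks 22, 48 and 85.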

How the data were processed

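RNA-seq of 4 libraries, 1 per condition, was used. The authors deposited CPM per Ensembl gene for each library. Per the submitters' processing notes the build was hg19. The aligner, counter and annotation are not given in the sources used here. The deposited CPM were whole multiples of 1 read (100% of values within 0.01 of a read), which gave the reads. Genes without reads carry a placeholder of 0.5 of a read or less and were set to 0.

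Changes are differences in log2(CPM + 1), for genes at 1 CPM or more in either library, called at 1. Ratio intervals are exact Clopper-Pearson, level intervals exact Poisson, and the floor is 3 reads per library (0.0427 to 0.0552 CPM). PCR copies cannot be told from molecules, so intervals cover counting error only. The genes and lists were chosen with earlier results of these data known. Symbols were found for 25756 of 27629 identifiers. From each list, genes called in at least 1 comparison at 5 CPM or more are named, at most 6 by size, with the gene of highest CPM per kb. Gene positions, exon lengths and 3′ UTRs are from GENCODE release 29, and promoters from RefSeq.

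As alternatives, the pseudocount was lowered to 0.1, the filter dropped or raised to 5 CPM, the threshold set at 1.5-fold, and the libraries scaled by median of ratios. The other libraries together (geometric mean) also served as reference, and an exact binomial test of the reads was added to the threshold. On simulated reads, 200 of 200 genes changed 4-fold were recovered among 13326, with 0 unchanged genes called. The changed genes all came from a middle range of expression, and the simulated reads held counting error only. Variation between cultures was not simulated, so this checks the calling and gives no error rate for the real libraries. The work was run in scipy 1.17.1, numpy 2.4.6, pandas 2.3.3 and matplotlib 3.10.9 under Python 3.11.15.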

Additional observations from a re-analysis of the deposited data

How the results depend on the processing

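No paired analysis was possible because each condition had 1 library, and no replicate could be left out. The number of genes called in si-hnRNPK was 1023 (486 up, 537 down). It became 1785 with a pseudocount of 0.1, 3517 with a threshold of 1.5-fold and 675 with the geometric mean of the other libraries as reference, where only genes listed in every table count. Under median-of-ratios scaling it was 984, split as 610 up and 374 down. In the library labelled si-lncRNA-LBCS 187 became 518, 1333 and 110 under the first 3 of these settings. In si-PTBP1 489 (404 up, 85 down) became 966, 2105 and 308, and 388 (256 up, 132 down) under median-of-ratios scaling. Of the 5 chemokines, 2 instead of 1 passed 1.5-fold in si-PTBP1, while all 5 instead of 3 did so for the library labelled si-lncRNA-LBCS. Of 75 values of single chemokines under the alternatives, 73 kept their direction. The other 2 belong to CXCL3 in si-PTBP1, which was not called. Reads limit CXCL10, IL6, IL1A and IL1B, and single libraries limit every comparison: the binomial test put 79.7%, 73.8% and 70.5% of genes at an adjusted p of 0.05 or less in si-hnRNPK, si-PTBP1 and the library labelled si-lncRNA-LBCS, which compares libraries and not conditions.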
